A study of Mus musculus with 16 samples.

Results

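Protein S, the product of Pros1, is a secreted anticoagulant that also activates the receptor tyrosine kinases Tyro3, Axl and Mertk. On macrophages and dendritic cells these receptors restrain inflammatory signalling and promote the uptake of dying cells, and tumour cells can make protein S themselves. The data below set B16F10 tumours deficient in Pros1 (BdP) against wild-type (WT) B16F10 tumours in mice given PBS only. B16F10 is a pigmented mouse melanoma line. The comparison used 8 of the 16 tumours sequenced, 4 BdP PBS and 4 WT PBS, and 12319 of 54532 genes, those with at least 1 FPKM in at least 4 of the 16 libraries. FPKM is the number of fragments per kilobase of gene. It was scaled here by a median-of-ratios size factor for each library and not by the library's total reads.

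The titles call the BdP cells Pros1-deficient, while a genotype label calls them a Pros1 knockdown; whether they are a clone or a pool is not given in the sources used here. The genotype labels describe the implanted cells, and no altered allele is named for the C57BL/6J hosts, which were 8 weeks old and of both sexes. BdP PBS and WT PBS tumours grew in the right flank from 100000 cells, received PBS once daily for 3 days in each of 2 rounds from day 8, and were taken at the end stage. The other 8 tumours, 4 BdP and 4 WT, were given cisplatin, which crosslinks DNA, on the same days at a dose of 5 mg/kg. Replicates are numbered tumours. The limma p-values set differences against the spread between tumours within groups, estimated over all 16 libraries with the cisplatin tumours included.

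Reads assigned to genes ran from 21519366 to 25903775 in BdP PBS tumours and from 10051843 to 22763959 in WT PBS tumours. The library WT PBS 1 stood apart, with 76.9% of its reads mitochondrial and 2322202 other reads, and haemoglobin took 15.5% of reads in WT PBS 2. Pearson correlations of log2 values between replicates were 0.916 to 0.974 in BdP PBS and 0.882 to 0.957 in WT PBS. The 7 melanoma markers were detected in every tumour and summed to 5845 to 6747 FPKM in BdP PBS, against 4648 to 8596 FPKM in WT PBS. Keratinocyte and adipocyte markers summed to at most 2.34 FPKM in each tumour. Y-linked transcripts summed to 0, 0, 1.64 and 3.89 FPKM in BdP PBS 1 to 4 and to 0, 0, 0 and 0.366 FPKM in WT PBS 1 to 4, so hosts of both sexes were present in each group.

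Pros1 itself was lower in every BdP tumour. It lies on chromosome 16 at 62854307 to 62929346 (GRCm38, plus strand). It was at 1.61, 1.59, 1.58 and 1.23 FPKM in BdP PBS 1 to 4, against 9.77, 4.79, 5.89 and 5.42 FPKM in WT PBS 1 to 4. The groups did not overlap, and the BdP mean of 1.503 ± 0.179 FPKM was 0.232 of the WT mean of 6.468 ± 2.246 FPKM (SD, n = 4 each). The highest value, in WT PBS 1, rested on 78 reads, while the other 7 libraries held 143 to 616 reads of Pros1. The log2 fold change on the log2(FPKM + 1) scale, which is used for all fold changes here and understates changes of low genes, was -1.54 ± 0.17 (SE), with a limma adjusted p of 0.00092. An exact two-sided permutation test over the 8 tumours gave p = 0.0286, the smallest that 70 splits allow. Transcript remained in BdP tumours, and bulk RNA does not say which cells carried it.

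The receptors of protein S, its homologue and PTP1B did not pass the test. Gas6, the other vitamin K-dependent ligand of these receptors, averaged 4.04 ± 1.02 FPKM in BdP and 4.08 ± 2.69 FPKM in WT tumours. Tyro3 averaged 3.00 ± 0.53 FPKM in BdP and 3.24 ± 1.39 FPKM in WT. Mertk, the receptor best known for clearance of dying cells, averaged 2.73 ± 0.72 FPKM in BdP and 2.07 ± 1.06 FPKM in WT. Axl was the most variable of these genes, with 34.5, 17.3, 8.75 and 9.88 FPKM in BdP PBS 1 to 4 against 8.14, 8.98, 27.9 and 1.30 FPKM in WT PBS 1 to 4. Its highest WT tumour, WT PBS 3, exceeded 3 of the 4 BdP tumours. Ptpn1, which encodes the tyrosine phosphatase PTP1B, averaged 12.7 ± 3.6 FPKM in BdP and 11.5 ± 5.1 FPKM in WT. Their limma adjusted p values ran from 0.465 for Axl to 0.917 for Tyro3, and all of these groups overlapped. Of the 10 genes tested in a list of Pros1, its receptors, their regulators and PTP1B, Pros1 was the only member called.

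Across all genes, 122 passed an adjusted p below 0.05 in limma, which is 0.990% of those tested. Higher calls in BdP numbered 51 (0.414%) and lower calls 71 (0.576%). Counts of called members in the gene lists are to be read beside these shares, and no list was tested as a set. In all 122 the 4 BdP tumours lay entirely to one side of the 4 WT tumours, as did 7.68% of all genes tested. The changes were of moderate size: the median called change was 0.76 for higher and -0.69 for lower genes, and 34 genes changed by more than 1 on the log2 scale, 14 higher and 20 lower. The median over all genes was 0.01, and 51.3% of genes had a positive fold change. The calls included 114 protein-coding genes, 4 lincRNAs, 1 antisense RNA, 1 processed pseudogene, 1 processed transcript and 1 immunoglobulin constant gene.

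The count depended on which tumours were in the fit. It was 25 without BdP PBS 4, 47 without BdP PBS 1, 65 without WT PBS 4, 75 without BdP PBS 3, 79 without WT PBS 1 and 356 without WT PBS 3, and the last fit included all 122. A fit of the 8 PBS tumours alone called 3 genes, Jph2, Ndrg2 and Igha. There were 22 genes called in all 8 fits that each left out 1 tumour, 4 higher (Igha, Hgsnat, Mtss1 and Sbno2) and 18 lower. Igha passed the filter only with the BdP PBS tumours counted, where it was high. The fits that left out 1 tumour kept the same set of genes. Named genes that lost their call in such a fit did so with adjusted p values of 0.0511 to 0.142 and with the same sign. A limma-voom fit of the recovered reads called 123 genes, 100 of them among the 122. Rescaling to TPM moved the median of all genes to 0.32 over nuclear genes without haemoglobin, where 8 genes were called higher and 6 lower, and to 0.77 over all genes, where 5 were called higher and 1 lower. With TPM over all genes, 42 of the 71 lower genes turned positive and 0 of the 42 were called, among them Jpt2, Crmp1, Cmas, Rtca, Ccna2 and Pfn2 (0.0148 to 0.455).

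**Figure D1:**
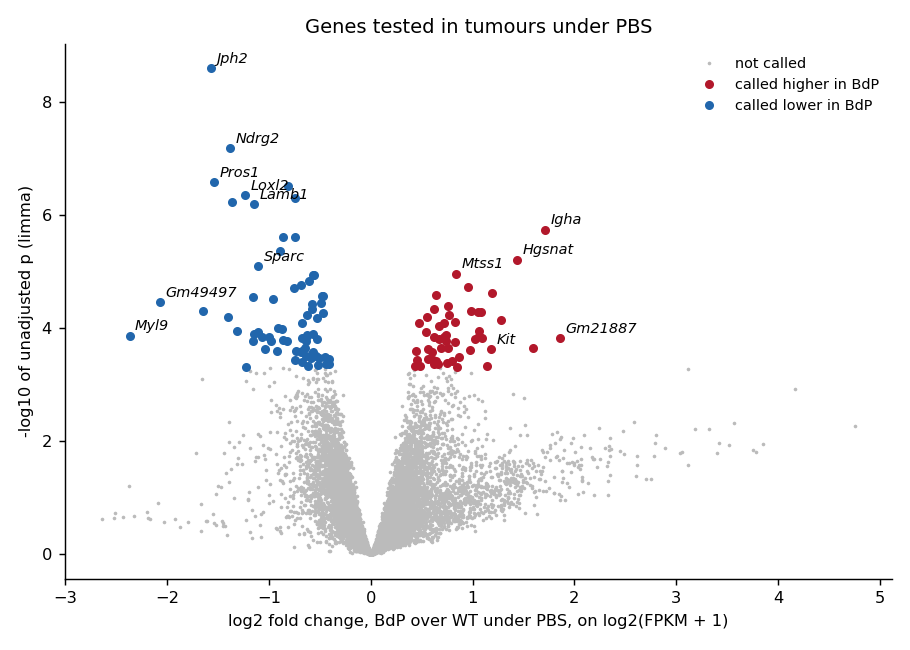
Each dot is 1 of the 12319 genes tested, with its log2 fold change of BdP over WT tumours under PBS on the x axis and the -log10 of the unadjusted limma p on the y axis. The 51 genes called higher are red and the 71 called lower are blue, and Jph2, Ndrg2 and Pros1 reach the smallest p values on the lower side, Igha and Hgsnat on the higher side.

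The genes with the smallest p values were lower in BdP tumours. Jph2 encodes junctophilin, which holds the reticulum close to the plasma membrane in excitable cells. It was at 1.52, 2.09, 1.99 and 2.21 FPKM in BdP PBS 1 to 4, against 7.58, 7.40, 9.26 and 6.74 FPKM in WT PBS 1 to 4. Its log2 fold change was -1.57 ± 0.12, with an adjusted p of 3.11e-05, and the lowest WT tumour was above every BdP tumour by a wide margin. Jph2 was the only called gene among 12 tested genes for calcium handling at reticulum contacts, whose median was 0.26. Ndrg2, a gene lowered in many tumours, averaged 1.14 FPKM in BdP and 4.60 FPKM in WT, a change of -1.38 ± 0.14 with an adjusted p of 0.00041. Etv4, an ETS-family transcription factor downstream of receptor tyrosine kinases, averaged 0.402 FPKM in BdP and 2.61 FPKM in WT, a change of -1.37 ± 0.16 with an adjusted p of 0.00098. Ndrg2 and Etv4 lie outside the naming rule and were chosen after their values were seen.

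Loxl2, Sparc and Lamb1, which act in the extracellular matrix, were lower in BdP tumours. Loxl2, a secreted lysyl oxidase that crosslinks collagen, was at 3.27, 2.54, 3.56 and 2.53 FPKM in BdP PBS 1 to 4, against 9.28, 10.1, 7.66 and 6.56 FPKM in WT PBS 1 to 4. Its change was -1.23 ± 0.14, with an adjusted p of 0.00098. Sparc, a collagen-binding matrix glycoprotein, was at 64.9, 54.7, 70.8 and 58.9 FPKM in BdP PBS 1 to 4, against 179.8, 140.3, 121.9 and 107.1 FPKM in WT PBS 1 to 4. The BdP values of Sparc lay close together and the lowest WT tumour was above them all, with a change of -1.11 ± 0.17 and an adjusted p of 0.0070. Lamb1, the beta-1 chain of the laminins of basement membranes, was at 0.400, 0.268, 0.299 and 0.484 FPKM in BdP PBS 1 to 4, against 1.55, 1.82, 2.32 and 2.46 FPKM in WT PBS 1 to 4. Its BdP mean was 0.178 of the WT mean, and the log2 change was -1.15 ± 0.14 with an adjusted p of 0.00098. These 3 genes were called in every fit that left out 1 tumour.

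The wider lists did not move in step with these members. Of 15 tested matrix glycoproteins and crosslinking enzymes, 2 were called, both lower (Loxl2 and Sparc), against 0.576% of all genes. Changes were positive for 7 and negative for 8, and the median was -0.10, or 0.04 without WT PBS 1. Among 12 basement membrane genes, Lamb1 was called and the median was 0.22. Outside these lists, the matrix protein gene Npnt and the collagen-modifying gene Colgalt1, chosen after their values were seen, were called higher. Npnt averaged 4.61 FPKM in BdP and 2.49 FPKM in WT (limma adjusted p = 0.0338). Colgalt1 averaged 34.5 FPKM in BdP and 22.6 FPKM in WT (limma adjusted p = 0.0419). Of the fits that left out 1 tumour, Npnt was called in 4 and Colgalt1 in 1. Agrn, the heparan sulfate proteoglycan agrin, was not called and averaged 13.5 ± 3.3 FPKM in BdP and 8.66 ± 1.48 FPKM in WT (adjusted p = 0.0962). No collagen or fibroblast gene was called among 7 tested, whose median was 0.15, or -0.05 without WT PBS 2 and -0.04 without WT PBS 4. The 5 fibroblast markers summed to 4.76 to 8.63 FPKM in BdP tumours and 4.15 to 17.9 FPKM in WT tumours, so those ranges overlapped.

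Myl9 had the largest change of any called gene on the log2(FPKM + 1) scale. It encodes the regulatory light chain of smooth muscle and non-muscle myosin and lies on chromosome 2 at 156775420 to 156781658 (GRCm38, plus strand). It was at 0.0854, 1.34, 0.861 and 1.85 FPKM in BdP PBS 1 to 4, against 24.7, 6.57, 8.05 and 4.50 FPKM in WT PBS 1 to 4. The BdP values rested on 3 to 61 reads, and the highest WT value came from WT PBS 1, on 56 reads. The change was -2.37 ± 0.46, with an adjusted p of 0.0267. It was -1.91 with an adjusted p of 0.0511 without WT PBS 1, and the call was also lost without BdP PBS 1 (adjusted p = 0.0822), BdP PBS 3 (adjusted p = 0.0609) and BdP PBS 4 (adjusted p = 0.0612). The voom fit did not call Myl9. Of 8 contractile genes of the smooth muscle type, Myl9 was the only call and the median was -0.22, or -0.02 without WT PBS 1. Acta2, the smooth muscle actin, averaged 0.649 ± 0.333 FPKM in BdP and 2.10 ± 1.89 FPKM in WT and was not called (adjusted p = 0.228). The 4 skeletal muscle markers summed to 0.685 to 1.74 FPKM in BdP and 0.935 to 3.55 FPKM in WT tumours, and their part in the Myl9 result was not tested.

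The promoters of Myl9 and Lamb1 are shown because these structural genes had the lowest BdP-to-WT ratios of means among the called genes named by the rule that code for protein. The RefSeq windows (GRCm38.p6) run from 250 bases before to 50 bases after the transcript start, at chr2:156775214-156775513 (plus strand) and chr12:31265043-31265342 (plus strand). Capitals mark a CArG box, the element bound by serum response factor at many contractile genes, which begins 161 bases before the start in Myl9.
Myl9: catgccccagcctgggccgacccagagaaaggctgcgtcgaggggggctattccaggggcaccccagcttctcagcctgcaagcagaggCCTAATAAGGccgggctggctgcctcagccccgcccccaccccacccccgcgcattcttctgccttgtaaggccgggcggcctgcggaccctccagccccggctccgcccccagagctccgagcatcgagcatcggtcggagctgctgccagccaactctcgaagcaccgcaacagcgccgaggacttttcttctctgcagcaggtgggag
Lamb1: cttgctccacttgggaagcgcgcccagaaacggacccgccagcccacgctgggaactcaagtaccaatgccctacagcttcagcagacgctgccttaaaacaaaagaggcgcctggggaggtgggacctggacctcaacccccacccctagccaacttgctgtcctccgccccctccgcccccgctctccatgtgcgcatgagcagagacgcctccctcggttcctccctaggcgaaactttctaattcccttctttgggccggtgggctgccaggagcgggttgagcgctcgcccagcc
The Lamb1 window held no match to the pattern of the CArG box. That pattern is the same on both strands, although the letters of a match can differ between them. It was found in 1.63% of 32851 windows of all genes. It was in 2 of 65 windows of the 52 lower genes with an entry (Myl9 and Selenbp1) and in 0 of 41 windows of the 26 higher genes with an entry. A match describes the letters in the window and does not show that a factor bound there.

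Actin regulators were called in either direction. Mtss1, which binds membranes and actin at the cell edge, was higher, at 10.1, 8.67, 7.23 and 8.89 FPKM in BdP PBS 1 to 4 against 3.66, 4.89, 4.55 and 4.59 FPKM in WT PBS 1 to 4. Its change was 0.84 ± 0.13 with an adjusted p of 0.0084, and every BdP tumour exceeded every WT tumour. Specc1, a coiled-coil protein that binds the cytoskeleton, was lower, with a mean of 2.07 ± 0.26 FPKM in BdP against 6.03 ± 3.14 FPKM in WT. Its call (adjusted p = 0.0259) was lost without BdP PBS 1, 2 or 4, with adjusted p values of 0.0704, 0.0558 and 0.0802. The list of 24 actin regulators had these 2 calls (0.990% of all genes were called) and a median of 0.14. Pfn2, a profilin that supplies actin monomers, averaged 5.43 ± 0.85 FPKM in BdP and 9.95 ± 2.58 FPKM in WT (adjusted p = 0.0422). The voom fit did not call Pfn2, and the call was lost when BdP PBS 1, 2, 3 or 4 or WT PBS 1 or 4 was left out, with adjusted p values of 0.0558 to 0.142. Rock1, the kinase that acts on myosin light chains and was chosen after its values were seen, averaged 11.3 FPKM in BdP and 6.99 FPKM in WT (adjusted p = 0.0267). Rock1 kept its call in 4 of the 8 fits that left out 1 tumour. Crmp1, a collapsin response mediator that binds microtubules, was lower in each BdP tumour, at 3.48, 3.46, 4.24 and 3.67 FPKM against 7.70, 6.49, 6.76 and 6.66 FPKM in WT PBS 1 to 4. Its change was -0.75 ± 0.10, with an adjusted p of 0.0028.

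Developmental regulators were also among the calls. Hoxd13, a homeobox factor that patterns the distal limb, was at 1.56, 2.02, 0.306 and 0.469 FPKM in BdP PBS 1 to 4, against 9.69, 4.23, 4.54 and 3.61 FPKM in WT PBS 1 to 4. Its change was -1.65 ± 0.29 with an adjusted p of 0.0171, and without BdP PBS 4 it was -1.51 with an adjusted p of 0.0718. It was the only call among 6 Hox and T-box factors tested, 5 of which had negative changes. In the Wnt pathway 2 of 19 genes tested were called, both higher (0.414% of all genes were), and the median was 0.13. Tcf7l1, a repressor of Wnt target genes, was at 15.98, 11.5, 16.6 and 18.1 FPKM in BdP PBS 1 to 4, against 3.78, 10.7, 6.33 and 7.32 FPKM in WT PBS 1 to 4. The groups were separated by less than 1 FPKM between BdP PBS 2 and WT PBS 2, and the adjusted p was 0.0268. Adgra2, a co-receptor for Wnt7 ligands in brain vessels, averaged 15.3 ± 2.9 FPKM in BdP and 6.84 ± 1.81 FPKM in WT (adjusted p = 0.0267). In the fits that left out 1 tumour, Tcf7l1 and Adgra2 lost their calls without BdP PBS 1 (adjusted p = 0.0769 and 0.0581), BdP PBS 3 (0.0639 and 0.0647), BdP PBS 4 (0.105 and 0.101) and WT PBS 4 (0.0569 each), and Adgra2 also without WT PBS 1 (0.0555).

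**Figure D2:**
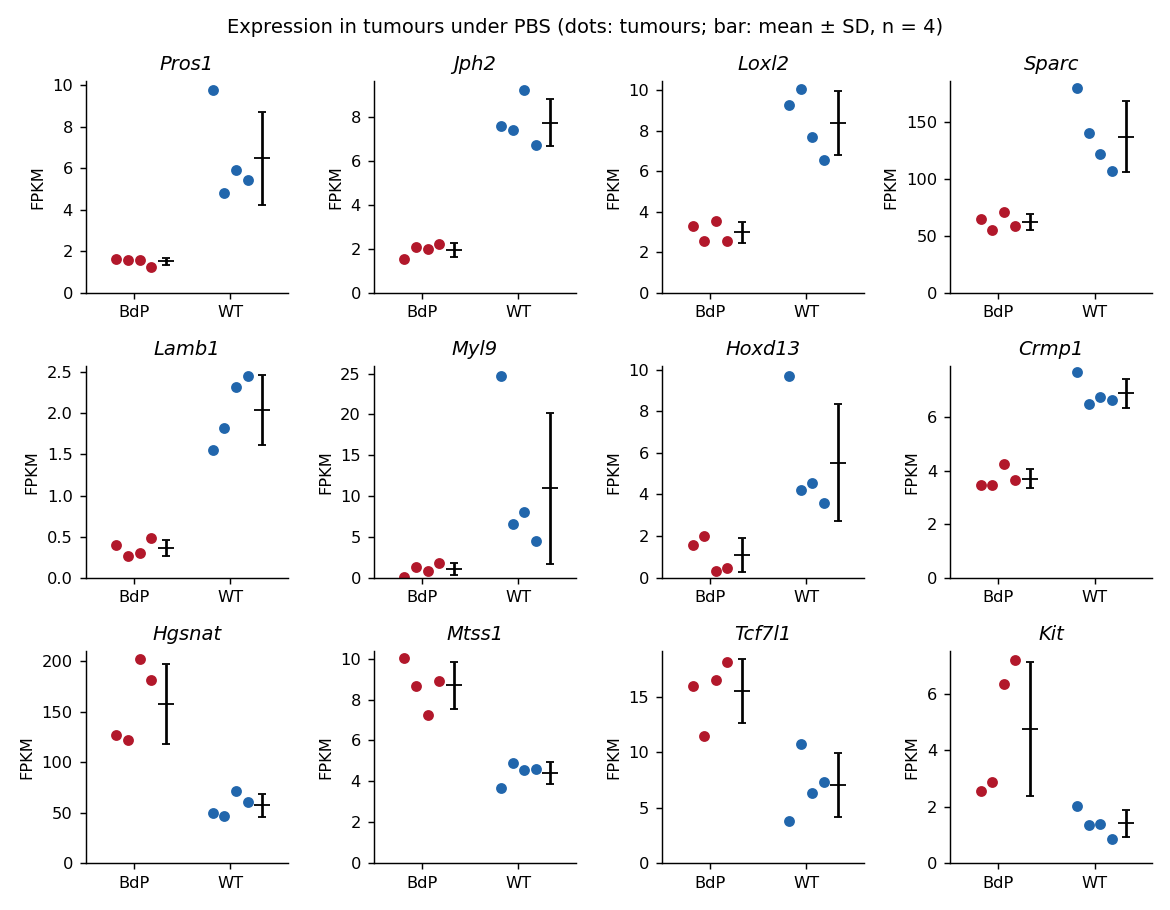
FPKM of 12 genes in the 4 BdP tumours (red, left) and 4 WT tumours (blue, right) under PBS, on linear axes from 0, with the mean and SD of each group as a bar. The first 8 genes are lower in every BdP tumour and the last 4 (Hgsnat, Mtss1, Tcf7l1 and Kit) are higher in every BdP tumour, while WT PBS 1 is the highest dot for Pros1, Myl9 and Hoxd13.

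The pigment programme of the melanoma cells did not shift as a whole. Of 18 melanocyte and pigment genes tested, 1 was called, 10 had positive and 8 negative changes, and the median was 0.03. The called gene was Kit, the receptor of stem cell factor that melanocytes need to survive and migrate. It was at 2.55, 2.87, 6.35 and 7.19 FPKM in BdP PBS 1 to 4, against 2.01, 1.35, 1.40 and 0.837 FPKM in WT PBS 1 to 4. BdP PBS 3 and 4, the BdP tumours with Y-linked transcripts, were more than 2-fold above the other BdP tumours, and the change of 1.18 ± 0.25 had an adjusted p of 0.0338. The call was lost without BdP PBS 3 (adjusted p = 0.0803), BdP PBS 4 (0.116), WT PBS 2 (0.0594) or WT PBS 4 (0.086). Gpnmb, a melanosome glycoprotein, was not called and averaged 507.8 ± 89.0 FPKM in BdP and 688.2 ± 83.9 FPKM in WT (adjusted p = 0.151).

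Among higher genes, Hgsnat had the largest change of those called in every fit that left out 1 tumour, apart from Igha. It encodes the lysosomal enzyme that acetylates the end of heparan sulfate so that the chain can be degraded, and lies on chromosome 8 at 25944453 to 25976753 (GRCm38, minus strand). It was at 127.3, 121.9, 202.2 and 181.2 FPKM in BdP PBS 1 to 4, against 49.9, 46.7, 71.3 and 60.4 FPKM in WT PBS 1 to 4. The lowest BdP tumour was well above the highest WT tumour, and the change was 1.44 ± 0.21 with an adjusted p of 0.0058. No other gene of 21 tested for lysosomes and heparan sulfate breakdown was called, and the median of that list was 0.06, or -0.02 without WT PBS 4. Sbno2, a corepressor acting downstream of interleukin-10 in macrophages, averaged 8.58 ± 1.21 FPKM in BdP and 3.99 ± 1.03 FPKM in WT (adjusted p = 0.0115). Il10rb, a receptor chain shared by interleukin-10 and related cytokines, averaged 21.7 ± 2.3 FPKM in BdP and 12.8 ± 3.0 FPKM in WT (adjusted p = 0.0267). Atf6, a sensor of protein folding in the endoplasmic reticulum, averaged 22.7 ± 4.3 FPKM in BdP and 12.5 ± 2.8 FPKM in WT (adjusted p = 0.0273). The call of Il10rb was lost without BdP PBS 2, 3 or 4 (adjusted p = 0.0572, 0.0625 and 0.101), and that of Atf6 without BdP PBS 3 or 4 or WT PBS 1 or 4 (0.0655, 0.111, 0.0641 and 0.0674). Atf6 was not a member of the list for unfolded protein and integrated stress, so that list does not cover the whole response. None of its 17 genes was called, and its median was 0.10.

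Other higher genes named by the rule had a range of functions. Coq8a, which supports coenzyme Q synthesis, averaged 23.9 ± 5.0 FPKM in BdP and 11.1 ± 3.5 FPKM in WT (adjusted p = 0.0259), while the list of 26 respiratory chain and coenzyme Q genes had no other call and a median of -0.14. Nipal3, a magnesium transporter relative, averaged 15.5 ± 2.5 FPKM in BdP and 7.22 ± 2.57 FPKM in WT (adjusted p = 0.0171). Chd3, a chromatin remodeller of the NuRD complex, averaged 17.03 ± 2.36 FPKM in BdP and 9.63 ± 0.74 FPKM in WT (adjusted p = 0.0338). Pdcd4, an inhibitor of translation initiation, averaged 15.9 ± 2.6 FPKM in BdP and 8.31 ± 1.44 FPKM in WT (adjusted p = 0.0403). Chd3 and Pdcd4 each lost their call without BdP PBS 1, 2 or 4 or WT PBS 1, 2 or 4, with adjusted p values of 0.0558 to 0.122 for Chd3 and 0.0551 to 0.142 for Pdcd4, and voom did not call Pdcd4. Zhx2, a zinc finger and homeobox repressor, and Tmco6 were higher as well, with changes of 0.74 and 1.02 and adjusted p values of 0.0268 each. Both lost their calls without BdP PBS 1, 3 or 4 or WT PBS 1 or 4, with adjusted p values of 0.0596 to 0.111 for Zhx2 and 0.0513 to 0.101 for Tmco6. Coq8a was not called without BdP PBS 2, 3 or 4 or WT PBS 1 or 4 (adjusted p from 0.0536 to 0.101), nor was Nipal3 without BdP PBS 4 (0.0731). Among called protein-coding genes, the largest higher change on the log2(FPKM + 1) scale was in Gm21887, a predicted gene on the X chromosome, at 10.2, 6.00, 29.4 and 11.7 FPKM in BdP PBS 1 to 4 against 3.37, 2.74, 1.34 and 3.64 FPKM in WT PBS 1 to 4. BdP PBS 3 stood high, voom did not call Gm21887, and the limma call was lost without BdP PBS 1 (adjusted p = 0.0642) or BdP PBS 4 (0.0959). Pcna-ps2, a copy of the replication clamp gene Pcna that could share reads with it, averaged 8.85 ± 1.25 FPKM in BdP and 3.24 ± 1.48 FPKM in WT (adjusted p = 0.0199), so its own level is uncertain. Without BdP PBS 1, 3 or 4 or WT PBS 1 or 4 it was not called (adjusted p from 0.0511 to 0.0612).

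The remaining lower genes named by the rule were varied in function. Cmas, which activates sialic acid for addition to glycans, was at 13.8, 11.5, 13.3 and 12.8 FPKM in BdP PBS 1 to 4, against 29.7, 25.9, 19.8 and 22.5 FPKM in WT PBS 1 to 4. Its change was -0.87 ± 0.12 with an adjusted p of 0.0028, and the groups were well apart. Rtca, an RNA cyclase, averaged 9.32 ± 1.05 FPKM in BdP and 18.2 ± 3.4 FPKM in WT (adjusted p = 0.0043). Jpt2, a binding protein of the calcium-mobilising messenger NAADP, averaged 7.92 ± 0.30 FPKM in BdP and 14.8 ± 1.9 FPKM in WT, with an adjusted p of 0.00092. Cmas, Rtca and Jpt2 were called in every fit that left out 1 tumour. Pafah1b3, a catalytic subunit of a platelet-activating factor acetylhydrolase, averaged 7.20 ± 2.29 FPKM in BdP and 17.4 ± 5.2 FPKM in WT (adjusted p = 0.0268). The uncharacterised gene 5031439G07Rik averaged 27.3 ± 2.3 FPKM in BdP and 57.2 ± 19.5 FPKM in WT (adjusted p = 0.0268). Mcts2, a retrogene copy of Mcts1 that could share reads with it, averaged 4.62 ± 1.40 FPKM in BdP and 10.8 ± 4.0 FPKM in WT (adjusted p = 0.0338), and voom did not call it. Leaving out single tumours ended the call of Pafah1b3 for 6 of 8 tumours, all but BdP PBS 2 and WT PBS 3 (adjusted p from 0.0594 to 0.111), that of Mcts2 for 6 of 8, all but BdP PBS 3 and WT PBS 3 (0.0594 to 0.121), and that of 5031439G07Rik for 4 of 8, BdP PBS 1, 3 and 4 and WT PBS 1 (0.0515 to 0.102).

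Tfrc and Scarb1, chosen after their values were seen, were lower. Tfrc, the transferrin receptor, averaged 48.9 FPKM in BdP and 79.7 FPKM in WT, a change of -0.69 ± 0.11 with an adjusted p of 0.0111. Scarb1, a receptor for high-density lipoprotein, averaged 12.4 FPKM in BdP and 20.3 FPKM in WT (adjusted p = 0.0268). Of the 8 fits that left out 1 tumour, Scarb1 was called in 3 and Tfrc in all 8. In the cholesterol synthesis list no gene of 16 was called, but 15 had negative changes and the median was -0.20, against 0.01 over all genes. Under the TPM scalings it was 0.15 and 0.74, against 0.32 and 0.77 over all genes. Cyp51, the sterol demethylase, came nearest, with means of 45.6 ± 9.4 FPKM in BdP and 67.1 ± 5.1 FPKM in WT (adjusted p = 0.0609).

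Of 26 cell cycle genes tested, 1 was called, Ccna2 (0.576% of all genes were called lower). In all, 24 had negative changes and 5 had all BdP tumours below all WT tumours (4.32% of all genes did), with a median of -0.27. That median was 0.07 and 0.63 under the TPM scalings that moved all genes to 0.32 and 0.77. The mean log2(FPKM + 1) over the list was 3.76, 3.72, 3.99 and 3.81 in BdP PBS 1 to 4, against 4.03, 4.13, 3.98 and 4.20 in WT PBS 1 to 4, and BdP PBS 3 and WT PBS 3 met. Ccna2, the cyclin of S phase and G2, was at 16.1, 18.5, 19.6 and 17.1 FPKM in BdP PBS 1 to 4 against 23.7, 24.1, 27.3 and 26.0 FPKM in WT PBS 1 to 4. Its change was -0.48 ± 0.08 with an adjusted p of 0.0132, and 0.0551 without BdP PBS 4. Tpx2, a spindle assembly factor, averaged 15.7 ± 1.2 FPKM in BdP and 20.5 ± 1.9 FPKM in WT and was not called (adjusted p = 0.0901). Among 26 DNA replication genes none was called and the median was -0.06. The leukocyte-rich tumours described next, BdP PBS 1 and 2, had the lowest cell cycle means in their group, and the part of leukocytes in these values was not tested.

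Leukocyte transcripts varied widely within each group. In bulk tumours, fewer cells of a type and less RNA per cell cannot be told apart. T cell markers summed to 52.4, 132.7, 7.66 and 26.5 FPKM in BdP PBS 1 to 4, against 7.02, 8.95, 50.6 and 0.121 FPKM in WT PBS 1 to 4. Macrophage markers summed to 688.3, 450.8, 239.7 and 192.9 FPKM in BdP PBS 1 to 4, against 158.1, 491.7, 682.5 and 40.1 FPKM in WT PBS 1 to 4. BdP PBS 1 and 2 and WT PBS 3 were rich in both, and WT PBS 4 was poorest. The tumours with Y-linked transcripts, BdP PBS 3 and 4 and WT PBS 4, had the lowest T cell and macrophage sums of their groups, and the part of host sex in these values was not tested. Of 21 T cell genes none was called although all 21 were positive, with a median of 1.12. The macrophage list (19 tested, all positive, median 0.57), MHC class II presentation (12 tested, all positive, median 1.92) and the interferon gamma response (23 tested, 21 positive, median 0.38) had no call either. These medians moved with single tumours: without WT PBS 4 they were -0.10 for macrophages, -0.31 for interferon gamma and 1.01 for class II. Without BdP PBS 1 the macrophage median was 0.27 and that of interferon gamma 0.02, and without BdP PBS 2 the T cell median was 0.61 and that of class II 1.27. Without WT PBS 3, by contrast, the medians were 1.16 for macrophages and 0.88 for interferon gamma. H2-DMb2, a chain of the class II peptide loader, illustrates the spread, at 23.5, 91.1, 2.46 and 10.5 FPKM in BdP PBS 1 to 4 against 0, 1.32, 6.79 and 0.0886 FPKM in WT PBS 1 to 4 (adjusted p = 0.173). Nlrc5, the activator of class I genes, averaged 5.62 ± 3.90 FPKM in BdP and 2.60 ± 2.45 FPKM in WT (adjusted p = 0.250). Lyz2, the lysozyme of myeloid cells, averaged 440.3 ± 198.2 FPKM in BdP and 302.8 ± 248.2 FPKM in WT (adjusted p = 0.450).

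B and plasma cell genes had the highest median of the leukocyte lists. All 23 tested were positive, 9 had every BdP tumour above every WT tumour (3.36% of all genes did), and the median was 2.33, against 0.01 over all genes. The list mean was 4.09, 5.20, 1.35 and 2.95 on the log2(FPKM + 1) scale in BdP PBS 1 to 4, against 0.649, 0.898, 1.63 and 0.620 in WT PBS 1 to 4, and WT PBS 3 exceeded BdP PBS 3. Igkc, the kappa light chain constant region, was at 348.4, 965.2, 15.6 and 112.6 FPKM in BdP PBS 1 to 4, against 0.962, 4.59, 32.3 and 2.28 FPKM in WT PBS 1 to 4, and was not called (adjusted p = 0.124). The single call was Igha, the constant region of immunoglobulin A, which lies on chromosome 12 at 113254830 to 113260236 (GRCm38, minus strand). It was at 2.18, 2.32, 2.04 and 2.87 FPKM in BdP PBS 1 to 4, against 0, 0.0686, 0.0147 and 0 FPKM in WT PBS 1 to 4. These rested on 136 to 217 reads in each BdP tumour, against 0 to 3 reads in each WT tumour. The change was 1.71 ± 0.23 with an adjusted p of 0.0025. Igha reached 1 FPKM in at least 4 libraries only with the BdP PBS tumours counted. It was not tested when the filter asked for 1 FPKM in 8 libraries or a mean of at least 5 FPKM. Igha was nearly level across the 4 BdP tumours, in which Igkc ranged from 15.6 to 965.2 FPKM. Lymph node stroma markers summed to 1.11 to 8.51 FPKM in BdP and 0.773 to 1.63 FPKM in WT, with 2 of 5 at 0 in each group, and their part in the B cell values was not tested.

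No gene of the inflammatory or the immediate early list was called. The NF-kB and cytokine list had 18 of 18 positive with a median of 1.17, and the immediate early and heat shock list 20 of 22 positive with a median of 1.10. Between the genotypes under cisplatin, these medians were 0.06 (10 of 18 positive) and 0.02 (12 of 22 positive). Jund, an AP-1 subunit, was at 70.3, 98.8, 77.7 and 85.8 FPKM in BdP PBS 1 to 4, against 21.8, 50.1, 50.2 and 55.1 FPKM in WT PBS 1 to 4 (adjusted p = 0.0845). Its groups did not overlap, and the lowest value was in WT PBS 1. Hspa1b, an inducible heat shock protein nearly identical to Hspa1a, averaged 87.5 ± 44.0 FPKM in BdP and 24.8 ± 16.3 FPKM in WT (adjusted p = 0.137). The immediate early list mean was 3.26 in WT PBS 1, the tumour with 76.9% mitochondrial reads, against 4.82 to 5.495 in the other WT tumours and 5.15 to 6.13 in BdP tumours. Without WT PBS 1 the median of the immediate early list was 0.51, and without WT PBS 1 and 2 together it was 0.49.

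**Figure D3:**
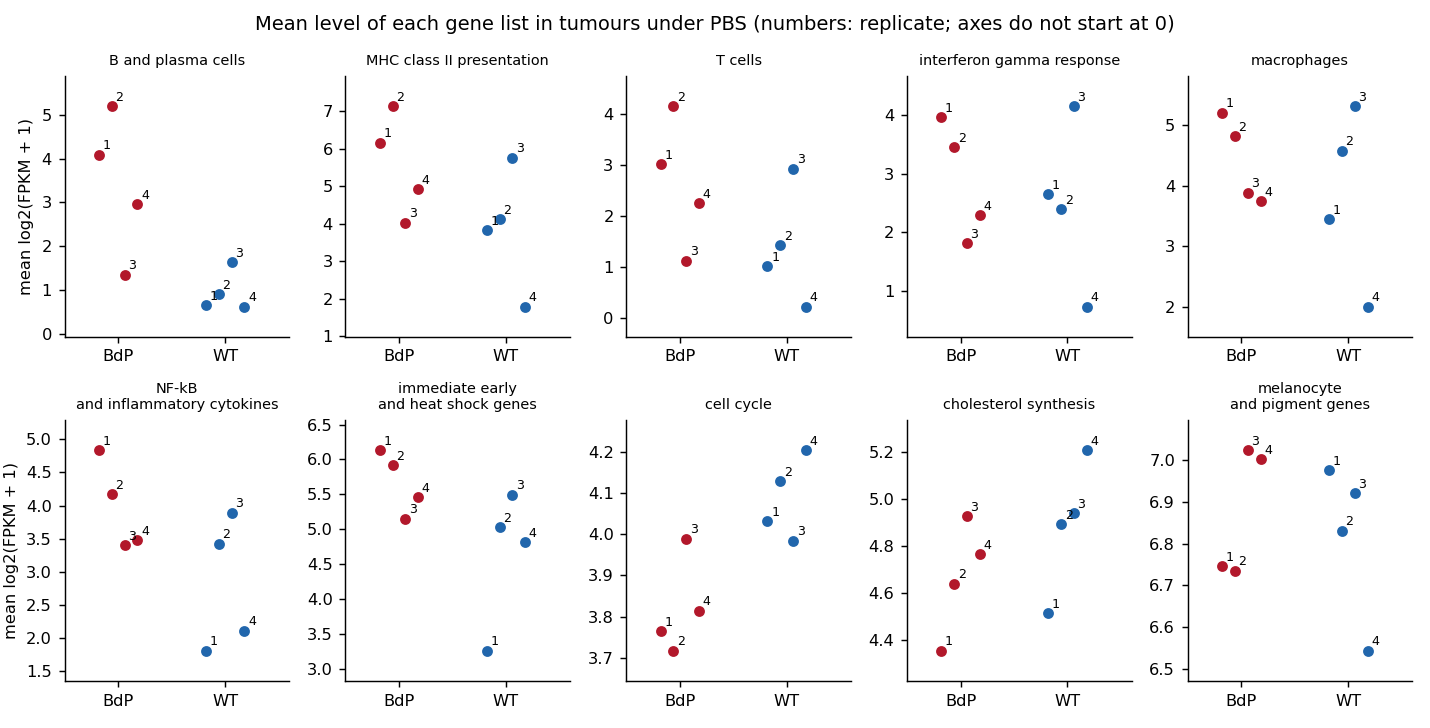
Mean log2(FPKM + 1) over the tested members of 10 gene lists in each tumour under PBS, BdP in red on the left and WT in blue on the right, with the replicate number beside each dot. BdP PBS 1 and 2 lie high in the leukocyte lists, and WT PBS 3 does so except for B cells, where it is at 1.63. WT PBS 4 lies lowest for B cells, class II, T cells, interferon gamma and macrophages. The groups overlap in every list shown, in cell cycle only through BdP PBS 3 (3.99) and WT PBS 3 (3.98).

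Genes for the clearance of dying cells were examined because Mertk and protein S act in that process. Of 13 tested, 1 was called and the median was 0.48, or 0.23 without WT PBS 1 and 0.27 without WT PBS 4 or BdP PBS 2. Megf10, an engulfment receptor of astrocytes and muscle precursors, was lower, at 1.13, 0.295, 1.03 and 0.855 FPKM in BdP PBS 1 to 4 against 2.79, 2.27, 2.82 and 2.56 FPKM in WT PBS 1 to 4. Its adjusted p of 0.0268 passed 0.05 without BdP PBS 2 (0.0558), BdP PBS 4 (0.0887), WT PBS 1 (0.0595) or WT PBS 4 (0.0647). Mfge8, which bridges dying cells to integrins on phagocytes, averaged 13.3 ± 3.3 FPKM in BdP and 19.3 ± 2.9 FPKM in WT and was not called (adjusted p = 0.120). None of 12 coagulation and protein C system genes tested was called, and their median was 0.37.

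Among lower genes, 2 had no reads in any BdP tumour. Gm49497, a lincRNA on chromosome 15 at 61184151 to 61241065 (GRCm38, plus strand), was at 0 in BdP PBS 1 to 4, against 8.28, 1.71, 1.44 and 4.06 FPKM in WT PBS 1 to 4, on 11 to 73 reads. With a floor of 3 reads over the BdP group it was at least 94.1-fold lower, and at least 58.4-fold lower without WT PBS 1. Its call was lost without BdP PBS 4 (adjusted p = 0.0551). Btn2a2, a butyrophilin that restrains T cells and was chosen after its values were seen, had 0 reads in BdP PBS and 10 to 141 reads in each WT PBS tumour, at least 159-fold lower. Btn2a2 was called in 5 of the 8 fits that left out 1 tumour. It reached 1 FPKM in at least 4 libraries only with the WT PBS tumours counted, where it was high. The 4 BdP tumours under cisplatin also held 0 reads of either gene, while the 4 WT tumours under cisplatin held 82 to 192 reads of Gm49497 and 39 to 88 of Btn2a2. Other non-coding calls were of smaller size. The lincRNA Gm45847 averaged 7.47 ± 0.73 FPKM in BdP and 2.86 ± 1.31 FPKM in WT (adjusted p = 0.0132), and the processed transcript Gm35021 averaged 1.44 ± 0.16 FPKM in BdP and 0.435 ± 0.142 FPKM in WT (adjusted p = 0.0181). Gm35021 reached 1 FPKM in at least 4 libraries only with the BdP PBS tumours counted, where it was high. The pseudogene AC238676.1, whose parent gene could share its reads, averaged 1.80 ± 0.27 FPKM in BdP and 4.26 ± 1.49 FPKM in WT (adjusted p = 0.0251). The calls of Gm45847 and Gm35021 were lost without BdP PBS 4 (adjusted p = 0.054 and 0.0636), and that of AC238676.1 without BdP PBS 1 or 4 or WT PBS 1 or 4 (0.0543 to 0.0959).

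Calls were most frequent on chromosomes 3 and 18. Chromosome 3 held 19 calls among 596 genes tested (3.19%, against 0.990% overall), 17 of them lower, and 66.4% of all its genes were negative, with a median of -0.13. Chromosome 18 held 9 calls among 305 genes (2.95%), 8 of them higher, with 72.5% of its genes positive and a median of 0.20. The other chromosomes named here were nearer to the overall share in either direction. Over all genes tested, higher calls alone made up 0.414% and lower calls alone 0.576%. Chromosome 17 held 7 calls among 611 genes (1.15%), all lower, with a median of -0.09. Chromosome 8 held 9 calls among 675 genes (1.33%), all higher, and all 9 lay before 80 Mb, where 332 genes were tested, against 0 of 343 genes beyond. In windows of 20 Mb, its medians were 0.16 to 0.23 before 80 Mb and -0.05 to 0.01 beyond. Hgsnat, Adgra2, Gm35021 and Colgalt1, described above, were among these 9 calls. Chromosome 1 held 7 calls among 695 genes (1.01%), 6 higher and 1 lower, and 5 of the 6 higher calls lay beyond 120 Mb. Its 20 Mb windows had medians of 0.17 to 0.26 from 120 Mb on and of -0.10 to 0.07 before. Chromosomes 15 and 6 held 6 of 496 (1.21%) and 8 of 711 genes (1.125%). The called chromosome 3 genes included Ccna2, Rtca and Pfn2 and, chosen after their values were seen, the histone variant gene H2afz, the lactate transporter gene Slc16a1 and the cap-binding factor gene Eif4e. Of the 8 fits that left out 1 tumour, H2afz was called in 3, Slc16a1 in 6 and Eif4e in 6.

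Median deviations separated the genotypes on chromosomes 3 and 18. The median deviation of chromosome 3 genes from their 16-library means was -0.06, -0.08, -0.09 and -0.10 in BdP PBS 1 to 4, against 0.01, 0.04, 0.06 and 0.09 in WT PBS 1 to 4. For chromosome 18 it was 0.11, 0.10, 0.11 and 0.12 in BdP PBS 1 to 4, against -0.16, -0.04, -0.06 and -0.11 in WT PBS 1 to 4. All BdP tumours lay to one side of all WT tumours for 6 of 20 chromosomes under PBS, namely 1, 3, 8, 15, 17 and 18. On chromosome 15 the gap was narrow, from -0.008 in the highest WT tumour to -0.005 in the lowest BdP tumour. The median fold change of its genes was -0.009, of the other sign. In the cisplatin tumours 9 chromosomes separated the genotypes, and 5 did so in the same direction as under PBS (1, 3, 8, 17 and 18). The medians there were -0.19 for chromosome 3, 0.25 for chromosome 18, -0.17 for chromosome 17, 0.10 for chromosome 8 and 0.07 for chromosome 1.

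**Figure D4:**
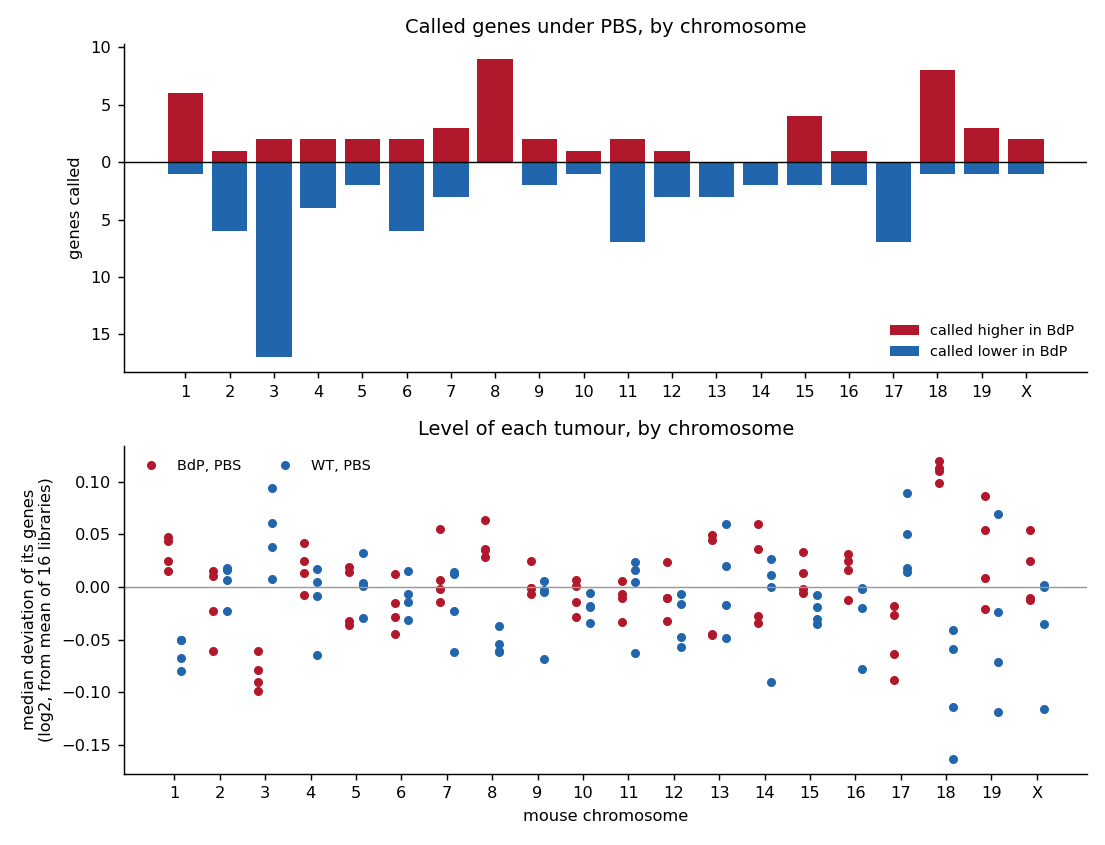
Top, number of genes called higher (red, up) and lower (blue, down) in BdP tumours under PBS on each chromosome. Bottom, median deviation of each chromosome's genes from their mean over 16 libraries, on the log2 scale, in each tumour under PBS. BdP is in red on the left and WT in blue on the right. The groups are apart on chromosomes 1, 3, 8, 15, 17 and 18, only narrowly on 15.

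The same genotypes under cisplatin gave a second set of 8 tumours, which shares no library with the PBS comparison but shares the implanted cells and the estimate of spread. There, 132 genes were called (1.07%), 43 higher (0.349%) and 89 lower (0.722%). Of the 122 genes called under PBS, 39 were called in the same direction under cisplatin, 13 higher and 26 lower, and 0 in the opposite direction. The overlap is 32.0% of the PBS calls and 29.5% of the cisplatin calls. The sign was the same for 120 of the 122, the exceptions being Igha and Plekhn1, and 85 had the same sign with an unadjusted p below 0.05, against 13.8% of all genes with such a p in either direction. The cisplatin groups were apart in the direction seen under PBS for 32 of the 51 higher genes, against 6.41% of all genes, and for 48 of the 71 lower genes, against 6.60% of all genes.

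Lamb1, Sparc and Loxl2 were lower in BdP tumours under cisplatin as well. Lamb1 averaged 0.518 FPKM in BdP and 5.18 FPKM in WT tumours there, a change of -2.04 (adjusted p = 1.95e-06), and Sparc averaged 64.4 FPKM in BdP and 182.4 FPKM in WT, a change of -1.51 (adjusted p = 0.00024). Loxl2 changed by -1.09 (adjusted p = 0.0012). Myl9 averaged 0.760 FPKM in BdP and 19.3 FPKM in WT, a change of -3.35 (adjusted p = 0.0017). Pros1 averaged 2.21 FPKM in BdP and 10.3 FPKM in WT, a change of -1.81 (adjusted p = 0.0001). Jph2, Crmp1, Hoxd13 and Jpt2 were called lower there too, and Hgsnat, Mtss1, Gm45847 and Pcna-ps2 higher. Hgsnat averaged 155.3 FPKM in BdP and 55.4 FPKM in WT, against 158.1 FPKM in BdP and 57.1 FPKM in WT under PBS.

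Other PBS calls were not called under cisplatin. Cmas changed by -0.26 there (adjusted p = 0.351), Rtca by -0.35 (0.242), Specc1 by -0.46 (0.359), Ccna2 by -0.21 (0.268), Sbno2 by 0.44 (0.229) and Kit by 1.00 (0.0663). Igha had the opposite sign, with means of 0.544 FPKM in BdP and 1.01 FPKM in WT tumours and a change of -0.46 (adjusted p = 0.386). The test of the difference between the genotype changes under cisplatin and under PBS called 0 genes in limma, with 691 at an unadjusted p below 0.05, and 1 gene by voom (Slc40a1, the iron exporter, adjusted p = 0.0197). Igha had an adjusted p of 0.0795 in that test, and 0.0317 to 0.885 over 19 alternatives, 3 of which called it. So in the limma fit none of the PBS calls was shown to differ between treatments.

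**Figure D5:**
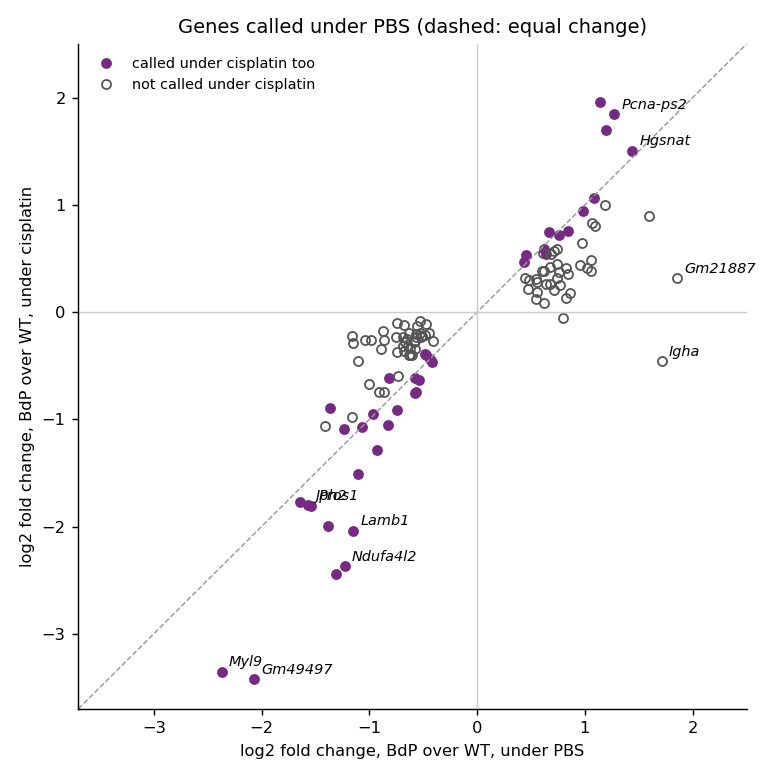
Log2 fold change of BdP over WT tumours under PBS (x axis) and under cisplatin (y axis) for the 122 genes called under PBS, with the dashed line marking equal changes. The 39 genes called in both are filled, Myl9, Gm49497 and Lamb1 lie below the line at the lower left, and Igha lies apart at the lower right.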

How the data were processed

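RNA from lysed disaggregated tumours was sequenced in bulk in 16 libraries, 4 per group; the comparison used 4 BdP PBS and 4 WT PBS libraries. The deposited values are FPKM per gene. The submitters' processing notes list HISAT2 2.0.5, featureCounts 1.5.0-p3, CASAVA and GRCm38 (mm10) among the tools and builds the authors used. In 100% of values, FPKM times gene length came to whole reads (within 0.1 read), which gave back the assigned reads; the implied divisor equalled the median-of-ratios size factor, so values were not normalised again. Strand use in counting is not given in the sources used here, so antisense and overlapping genes are uncertain.

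Genes with at least 1 FPKM in 4 of 16 libraries were fitted on log2(FPKM + 1) in limma 3.58.1 (R 4.3.3), with group means over all 16 libraries and a mean-variance trend. Calls required a p below 0.05 after Benjamini-Hochberg adjustment across every gene in the fit. Errors are SD for FPKM and moderated SE for fold changes. The procedure was tested on simulated data. The planned count models were left out on the ground that the deposited unit is FPKM, although reads could be recovered. Of models for reads, only limma-voom was run on the recovered reads, added after seeing the data.

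Named genes were the 15 called protein-coding genes with the largest change each way that averaged 5 FPKM or more in the higher group, Pros1, Gas6, Tyro3, Axl, Mertk and Ptpn1, called list members, list members with the smallest p, and the 3 non-coding calls with the smallest p each way. The comparison, members and lists were chosen with earlier results of these data known. Alternatives covered the pseudocount, filter, scaling, samples fitted, variance model, replicate block and libraries left out.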

Additional observations from a re-analysis of the deposited data

Results flagged for a closer look

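Dixon's test for a sample apart was applied to the 4 tumours of each group for 64 named genes (128 groups) and to 2 measures of library make-up; chance flags about 1 group in 20. Pros1 was flagged because BdP PBS 4, at 1.23 FPKM, lay below the other BdP tumours (1.58 to 1.61 FPKM). Gpnmb was flagged because BdP PBS 1, at 640.0 FPKM, lay above the other BdP tumours (452.0 to 479.1 FPKM). Jund was flagged because WT PBS 1, at 21.8 FPKM, lay below the other WT tumours (50.1 to 55.1 FPKM). The mitochondrial share of WT PBS 1, 76.9% of reads, and the haemoglobin share of WT PBS 2, 15.5% of reads, each stood apart from the other WT PBS tumours.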

How the results depend on the processing

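The 122 PBS calls (51 higher, 71 lower) became 56 (22 and 34) with no filter on low values, 80 (32 and 48) at a mean of at least 5 FPKM, 3 (1 and 2) with only the groups compared, 14 (8 and 6) with TPM over nuclear genes without haemoglobin, 6 (5 and 1) with TPM over all genes, 50 (16 and 34) without the 3 libraries richest in mitochondrial reads, and 41 (14 and 27) without WT PBS 1 and 2 together. Leaving out 1 tumour at a time gave 25 to 356 calls, 5 to 147 higher and 20 to 209 lower. The 132 cisplatin calls (43 higher, 89 lower) became 51 (17 and 34) at a mean of at least 5 FPKM, 251 (99 and 152) with only the groups compared, 48 (7 and 41) with TPM over nuclear genes, 21 (4 and 17) with TPM over all genes, 55 (15 and 40) without the 3 mitochondria-rich libraries and 231 (86 and 145) by voom, with 26 higher when no filter was set. The cause of these changes was not tested. The 2 TPM scalings moved the median of all genes to 0.32 and 0.77, so their directions are relative to that shift. TMM rescaling gave 40 higher and 85 lower PBS calls. Pros1 was -1.54 but not called with only the groups compared, and -0.96 and not called with TPM over all genes.

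Of the 122 called genes, 42 reversed, each with TPM over all genes, where 0 of the 42 were called. Those named in the text were Jpt2 0.0484, Crmp1 0.0185, Cmas 0.0634, Rtca 0.0148, Ccna2 0.455 and Pfn2 0.0881. Uncalled genes also reversed there (Cyp51 0.409, Tpx2 0.556, Mfge8 0.402, Gpnmb 0.56, Mvd 0.534 and Tyro3 0.762). Tyro3 also reversed with TPM over nuclear genes (0.291), without the mitochondria-rich libraries (0.165), without WT PBS 1 and 2 (0.24), by voom (0.188), and without BdP PBS 1 (0.0183) or WT PBS 1 (0.165), within a range of -0.142 to 0.165 over the fits that left out 1 tumour. Ptpn1 reversed without WT PBS 1 and 2 (-0.0395), and Gas6 without BdP PBS 3 (-0.0127) or WT PBS 4 (-0.165), within a range of -0.165 to 0.426.

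The replicate numbers did not pair the tumours, since same-number deviations correlated at -0.24, 0.06, -0.61 and 0.41 and only number 4 matched best with itself. A replicate block gave 81 PBS calls (32 higher, 49 lower) and 80 cisplatin calls (22 and 58), and left Pros1 at -1.54. The planned count-model tests were left out on the ground that the deposited unit is FPKM, although reads could be recovered. With 2322202 reads outside the mitochondrial genes, WT PBS 1 limits the precision of low genes.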

Other observations

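Other gene lists were measured in the same tumours, and no member of them was called. The cytotoxic effectors of T and NK cells were positive for 12 of 12 genes tested with a median of 0.94, NK cell genes for 10 of 10 with a median of 0.61, and regulatory T cell genes for 5 of 5 with a median of 0.62. Immune checkpoint genes were positive for 14 of 14 with a median of 0.79, and chemokine ligands for 16 of 17 with a median of 0.98. Inflammatory macrophage genes had a median of 0.98 (9 of 10 positive) and alternative macrophage genes 0.68 (10 of 10 positive). Type I interferon response genes had a median of 0.43 (18 of 21 positive) and MHC class I presentation genes 0.46 (12 of 15 positive). Dendritic cell genes had a median of 0.68 (7 of 9 positive), while neutrophil genes had a median of -0.04 (3 of 7 positive). In every one of these leukocyte lists the BdP and WT ranges of the list mean overlapped. Without WT PBS 4, the tumour poorest in leukocytes, the medians were 0.44 for cytotoxic effectors, 0.47 for checkpoints, 0.41 for chemokines, 0.42 for inflammatory and 0.28 for alternative macrophage genes, 0.21 for dendritic cells, 0.04 for type I interferon and -0.11 for MHC class I. Without BdP PBS 2 they were 0.26 for NK cells, 0.26 for regulatory T cells and 0.20 for MHC class I. The neutrophil median was 0.12 without WT PBS 1 and -0.23 without WT PBS 4.

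Lists of tumour-cell and vessel genes stayed nearer to the median of all genes. The p53 targets had a median of 0.03 over 20 genes tested, or -0.10 without WT PBS 1 and 0.17 without WT PBS 4. Hypoxia and glycolysis genes had a median of -0.17, with 15 of 22 negative. Endothelial genes had a median of -0.19 over 5 tested, or 0.10 without WT PBS 4. With TPM over all genes, which moved the median of all genes to 0.77, these medians were 0.81 for hypoxia and glycolysis and 0.78 for endothelium, and that of neutrophil genes was 0.79. Erythroid genes were negative for 9 of 9, with a median of -0.61, and their list mean was highest in WT PBS 2 (10.3). Without that tumour the erythroid median was 0.17, and with TPM over all genes it was 0.40. Mitochondrially encoded genes were negative for 15 of 15, with a median of -1.52, and their list mean was 16.5 in WT PBS 1, against 7.75 to 8.86 in the other WT tumours and 8.13 to 9.08 in BdP tumours. Without WT PBS 1 the mitochondrial median was 0.28.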
